A study of Mus musculus with 12 samples.

Results

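Guidance genes encode the ligands and receptors by which cells attract, repel or hold their neighbours. The genes described here were the rows of the islet count table whose mouse symbols belong to the ephrins (Efna, Efnb), Eph receptors (Epha, Ephb), semaphorins of classes 3 to 7 (Sema), plexins (Plxn), netrins (Ntn), Slits, Robo receptors and Unc5 receptors. Of 37991 rows, 67 carried such a symbol, and the 60 with a total count of at least 50 over the 12 libraries were kept. The 7 rows below that minimum were Epha6, Epha10, Efna3, Ntn5, Sema3a, Sema3d and a second Efna5 row. Of the 60 genes, 58 passed the expression filter of the test, 30 of them ligands and 28 receptors, and Efna4 and Unc5d did not.

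RNA was sequenced from whole pancreatic islets of male C57BL/6 mice at 2 and 12 weeks of age (2w and 12w). Tg7 mice overexpress the microRNA miR-7a2 in β-cells only, are prediabetic at 2w and diabetic at 12w, and were compared with wild-type (Wt) litter controls that carry no transgene. Islets were freed with Liberase and collected on a Histopaque gradient, so the vessels, stroma and nerve endings that stay attached to an islet were sequenced with its endocrine cells. Each of the 4 groups had 3 libraries, every library pooled the islets of at least 3 animals, and the p values below therefore measure the spread between pools and not between mice.

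Ephrins are anchored in the cell membrane and bind Eph receptor tyrosine kinases on the neighbouring cell, with signals running into both cells. Semaphorins act through plexins, the secreted class 3 members usually with a neuropilin as co-receptor, whereas netrins bind Dcc, neogenin and the Unc5 receptors, and Slits bind the Robo receptors. In the islet, ephrin-A and EphA signals between β-cells are known to tune insulin secretion, and Robo receptors are needed for the ordered arrangement of endocrine cells. The same families also pattern blood vessels, where Robo4, Ephb4, Efnb2, Plxnd1 and Unc5b are well known endothelial genes. With RNA of whole islets, fewer cells of a type and less RNA per cell cannot be told apart.

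The microRNA that the transgene encodes is shown here because a match of its seed in a 3′ UTR is the shortest link between the transgene and any guidance transcript. Mature miR-7a-5p lies at chr7:78888295-78888317 on the plus strand in the Mir7-2 hairpin, and the same letters are encoded in Mir7-1 on chromosome 13 (RefSeq, GRCm38.p6). Capitals mark the seed, bases 2 to 8.
miR-7a-5p: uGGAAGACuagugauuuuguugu
Mature miR-7a was not measured by these libraries, and the raw counts of the Mir7-2 hairpin row, 0 to 8 in the Tg7 libraries and 2 to 13 in the Wt libraries, give no check of the transgene.

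The longest annotated 3′ UTRs of the guidance genes were searched on their own strand for the 8-base motif GTCTTCCA and for the shorter motifs it holds, its first 7 bases (GTCTTCC) and its last 7 bases (which begin with its second letter and end in the A that faces base 1 of the microRNA). At least 1 match was found in 19 of 60 genes (31.7%), beside 24.9% of 14403 protein-coding genes tested that had an annotated 3′ UTR. The median 3′ UTR was longer in the guidance genes (1535 bases against 1152), and per kilobase they held 0.186 matches against 0.209. The full 8-base match was present in Epha3, Epha8, Plxnb1 and Sema3g (6.67% of the guidance genes, beside 3.94%). Each is printed below with the 22 bases before it, as read from mm9 (NCBIM37), with the match in capitals. Sema3c, 1 of only 2 guidance genes called lower in 12w Tg7 islets, is added with its 7-base match. It was picked for that direction, and its call was lost in 3 of 7 alternative fits and in 6 of 12 with a library left out.
Epha3, chr16:63544672-63544701, minus strand: tatcaggtataactatctttgaGTCTTCCA
Epha8, chr4:136485472-136485501, minus strand: acacgaggggtggggacaccttGTCTTCCA
Plxnb1, chr9:109021027-109021056, plus strand: gttggtgcctcaggaccaccctGTCTTCCA
Sema3g, chr14:32043391-32043420, plus strand: aaatgggccttgtggcttctccGTCTTCCA
Sema3c, chr5:17234288-17234317, plus strand: acgtttctactgttatgttatcaTCTTCCA
In 12w islets, 11 of the 19 genes with a match were upregulated in Tg7 mice, 1 was downregulated and 7 did not pass the test, beside 12.5% of all genes upregulated and 11.2% downregulated. Of the 39 tested genes without a match, 15 were upregulated and 1 was downregulated. At 2w the genes with a match counted 3 upregulated and 0 downregulated, and those without 3 and 1, beside 6.07% and 4.55% of all genes. A match is a description of the letters and not of binding.

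Total counts per library ranged from 11610697 to 17515758, and the 2 insulin genes, which define the islet, took 1.84% to 29.99% of them. The Tg7 2w replicate 1 library stood apart by lymphocyte and leukocyte transcripts. Ptprc, the pan-leukocyte phosphatase CD45, stood at 22.4 CPM (read counts scaled by library size) there and at 0.532 to 2.48 CPM in the other 11 libraries. The Wt 12w replicate 4 library stood apart for several guidance receptors and by a lower insulin share. The insulin genes took 14.85% of its counts, against 29.99% and 27.01% in the other 12w Wt libraries. Its summed β-cell markers were also the lowest of its group. The values of Robo1, Robo2, Sema3c, Plxna2, Plxnc1 and Unc5c are given with and without the library they rest on.

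Levels between genes were compared as CPM per kilobase of exon. Plxnb2, a plexin that binds class 4 semaphorins, was the highest guidance transcript in every group, with 47.7 ± 0.57 CPM per kilobase in 2w Wt islets (SD, n = 3) and 47.3 ± 5.81 in 12w Wt islets. Its lowest library in each group lay above the highest library of the next gene. In 2w Wt islets the next was Sema7a, a membrane-linked semaphorin, with 20.5 ± 1.43 CPM per kilobase, also apart from the genes below it. From Efna1 (15.8 ± 3.02) through Unc5a, Robo4, Sema4b, Plxnb1 and Plxnd1 to Efnb1 (8.77 ± 0.90), each gene's range over libraries overlapped that of its neighbour in the order. In 12w Wt islets Unc5a (13.4 ± 2.22), Sema4b (10.0 ± 2.02), Plxnb1 (8.53 ± 0.32), Robo2 (7.70 ± 3.56) and Sema7a (7.68 ± 2.54) followed Plxnb2, again with overlapping neighbours. In 12w Tg7 islets the order below Plxnb2 was Unc5a (21.3 ± 0.42), Sema7a (15.9 ± 0.86) and Plxnb1 (13.0 ± 0.62), and their ranges did not overlap.

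Within families the highest mean per kilobase belonged to Ephb4 among the EphB receptors, Efna1, Efnb1, Sema3f, Sema4b, Sema7a, Plxnb2, Ntn4, Slit3 and Unc5a in Wt islets of both ages. In 3 families the gene of highest mean differed with age, Epha2 at 2w and Epha1 at 12w, Plxna3 and then Plxna2, and Robo4 and then Robo2. Library ranges overlapped between Epha1 and Epha2 at 12w, Plxna3 and Plxna2 at 2w, and Robo2 and Robo1 at 12w. A change of leader was therefore not shown for Epha or Plxna. By CPM alone and over all Wt libraries, Epha7, Robo2, Sema3c and Sema6d led their families instead. Slits were scarce: Slit3, the highest of them, averaged 0.440 CPM per kilobase over the Wt groups. Unc5d, Plxnb3, Epha5, Ephb1 and Epha3 were the lowest 5 genes of 2w Wt islets, at 0.0383 to 0.136 CPM per kilobase.

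**Figure D1:**
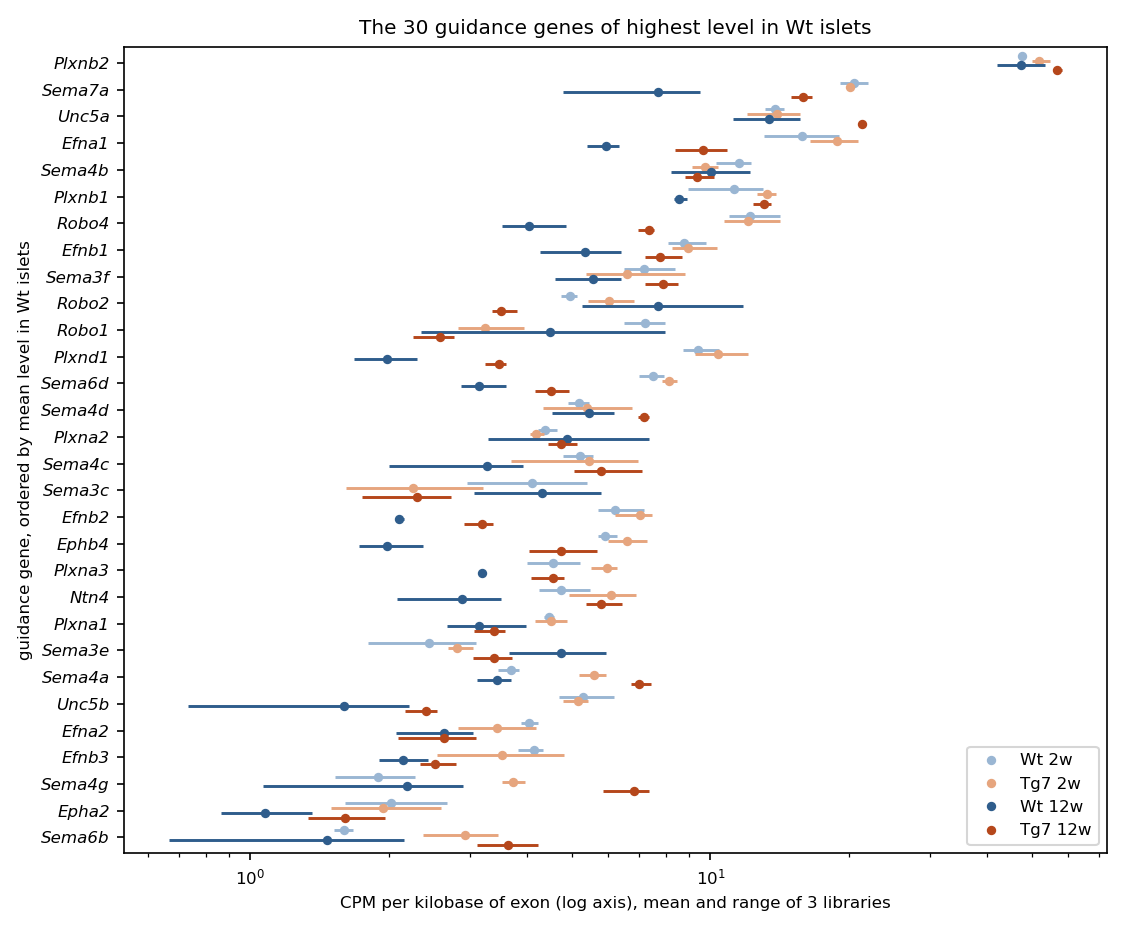
Levels of the 30 guidance genes that were highest in Wt islets, in CPM per kilobase of exon on a log axis; points are group means and lines the range of 3 libraries. Plxnb2 stands to the right of all others in the 4 groups, with means of 47.3 to 56.7 CPM per kilobase, and the 12w Wt means of Sema7a, Efna1, Robo4 and Plxnd1 stand left of their other group means.

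The first question was which guidance genes differed between Tg7 and Wt islets at 2w, before diabetes. Of the 58 tested, 6 were upregulated (10.3%, beside 6.07% of all 15961 genes tested) and 1 was downregulated (1.72%, beside 4.55%). The upregulated genes were the semaphorins Sema4a, Sema4g and Sema6a, the receptors Ephb2 and Ephb6, and Ntn3, whereas Robo1 was downregulated. By direction alone, 45 log2 fold changes were positive and 13 negative, with a median of 0.26 beside 0.03 over all genes. The Tg7 libraries lay above all Wt libraries for 18 guidance genes (31.0%, beside 17.8% of all genes) and below all of them for 1 (1.72%, beside 18.1%). Without the Tg7 2w replicate 1 library, 6 genes were upregulated and 2 downregulated, with calls gained by Epha1 (1.21), Sema3b (1.33) and Sema3c (−1.19) and lost by Ephb2 and Sema4g. Of all 16362 genes tested without that library, 1060 were upregulated and 640 downregulated. With library size alone as the scaling the split was 10 and 0, beside 1670 and 317 of all 15961 genes. The count of upregulated genes was 3 without any 1 of the 2w Wt libraries and 11 without Wt 12w replicate 4. All-gene counts moved the same way. They were 491 of 16459, 552 of 16472 and 377 of 16437 without 2w Wt replicates 1, 2 and 3, and 1613 of 16460 without Wt 12w replicate 4.

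Ephb6 is an Eph receptor without kinase activity (chr6:41555481-41570508, mm9). It measured 2.79, 2.06 and 2.07 CPM in the 2w Wt libraries and 5.71, 4.68 and 7.40 CPM in the Tg7 libraries. The groups did not overlap, and the log2 fold change was 1.36 ± 0.26 (SE throughout for fold changes; edgeR adjusted p = 0.00483). Ephb2, a kinase-active receptor of B ephrins, had 14.7, 18 and 17.3 CPM in Wt and 29.6, 19.9 and 25 CPM in Tg7 islets. Its groups were separate by a small gap and the log2 fold change was 0.58 ± 0.17 (adjusted p = 0.0436). The Ephb2 call was lost without any of the 2w Wt libraries, Tg7 2w replicates 1 or 3 or any 12w Tg7 library (adjusted p up to 0.166), and without the expression filter.

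Sema4a (chr3:88239881-88265104) is a transmembrane class 4 semaphorin that binds B and D plexins. It measured 18.7, 20.7 and 20.3 CPM in 2w Wt islets and 28.0, 32.1 and 30.5 CPM in Tg7 islets. All Tg7 libraries were higher than all Wt libraries, and the log2 fold change was 0.60 ± 0.13 (adjusted p = 0.00776). Sema6a, a transmembrane ligand of plexins A2 and A4, had 9.97, 11.8 and 11 CPM in Wt and 23.4, 20.7 and 22.5 CPM in Tg7 islets (1.02 ± 0.18, adjusted p = 0.00315). Its groups did not overlap. Sema4g, another class 4 member, measured 9.14, 7.44 and 11.1 CPM in Wt and 19.3, 17.9 and 17.1 CPM in Tg7 islets. The groups were separate, and the log2 fold change was 0.96 ± 0.28 (adjusted p = 0.0404), but the call was lost without any 2w library or any 12w Tg7 library (adjusted p up to 0.133). Ephb6, Sema4a and Sema6a were the 3 of 7 genes whose 2w call was kept in all these fits and in all alternative ones.

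Ntn3 (chr17:24340793-24346332), a secreted netrin, was low in Wt islets at 1.36, 1.55 and 1.17 CPM and stood at 3.20, 3.64 and 3.38 CPM in 2w Tg7 islets. The log2 fold change was 1.32 ± 0.35 (adjusted p = 0.0284), with separate groups, and the call was lost without any 2w Wt library or Tg7 2w replicates 2 or 3 (adjusted p up to 0.124). Its exons share 89 bases (1.82%) with Tbc1d24 on the same strand, and how reads on shared bases were counted is not given in the sources used. Robo1 (chr16:72663394-73046340), a Slit receptor, moved the other way. It measured 62.0, 68.5 and 76.0 CPM in 2w Wt islets against 37.5, 27.0 and 28.3 CPM in Tg7 islets. The groups were far apart, and the log2 fold change was −1.15 ± 0.33 (adjusted p = 0.0394), a call lost with library size alone as the scaling (adjusted p = 0.098) and without any 2w Wt or 12w Tg7 library or Tg7 2w replicates 2 or 3 (adjusted p up to 0.134).

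The remaining 2w families showed values without calls. The ephrins ranged from −0.23 (Efnb3) to 0.65 (Efna5) in log2 fold change, and the plexins from −0.07 (Plxna2) to 1.66 (Plxnc1). The value of Plxnc1, a plexin found on leukocytes that binds Sema7a, came from the Tg7 2w replicate 1 library with its lymphocyte transcripts. That library held 10.4 CPM of Plxnc1, and the other 2 held 1.75 and 0.497 CPM, within the Wt range. Without that library the Plxnc1 log2 fold change was −0.26 (adjusted p = 0.867), beside 1.66 with it. The netrin Ntn1 (0.42 ± 0.28) and the receptors Robo2 (0.28 ± 0.23), Unc5a (0.02 ± 0.13) and Plxnb2 (0.12 ± 0.11) were not called at 2w.

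**Figure D2:**
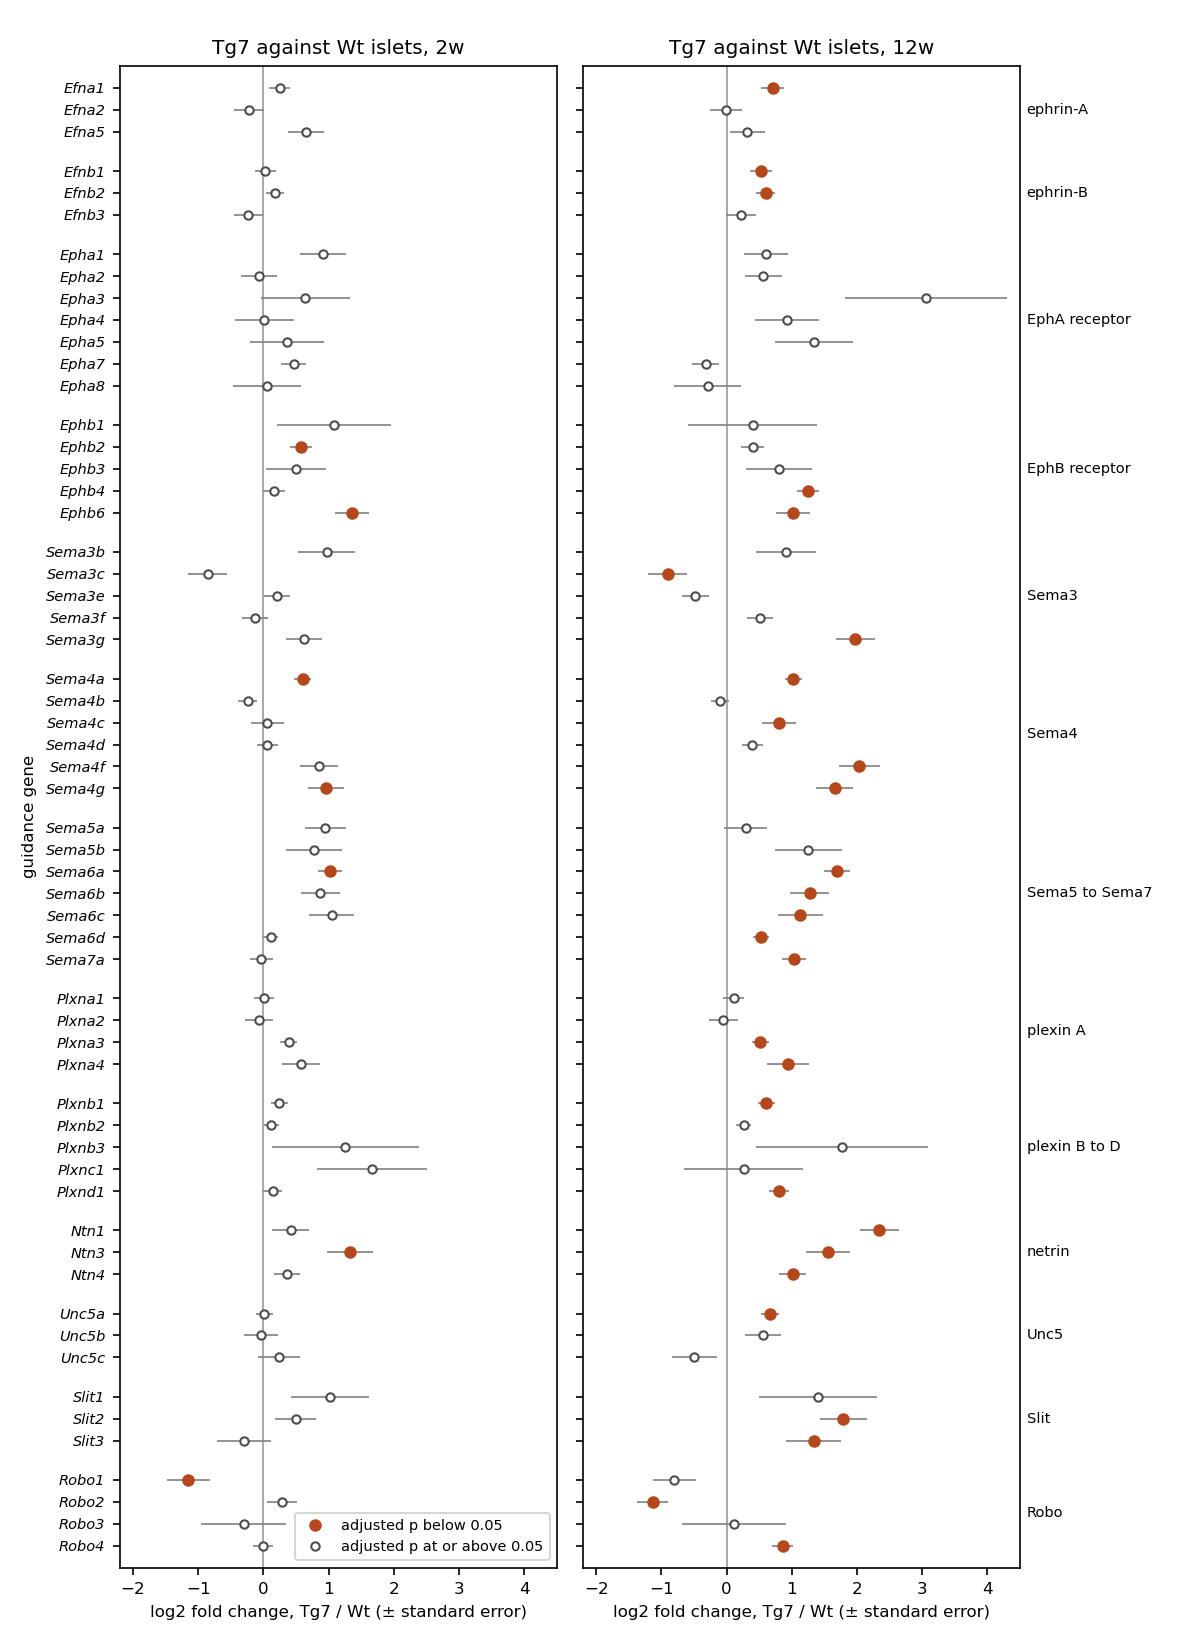
Log2 fold change of Tg7 against Wt islets for the 58 tested guidance genes by family, at 2w (left) and 12w (right), with bars of 1 standard error; filled points had an edgeR adjusted p below 0.05. At 12w 26 filled points lie right of 0 and 2 left of it, and at 2w 6 and 1.

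At 12w, in diabetic mice, the picture was wider. Of the 58 genes, 26 were upregulated (44.8%, beside 12.5% of all genes) and 2 were downregulated (3.45%, beside 11.2%). The median log2 fold change was 0.64, beside −0.01 over all genes. Ligands counted 18 upregulated of 30 and receptors 8 of 28. By family the upregulated genes were 10 of 18 semaphorins, 3 of 3 netrins, 3 of 6 ephrins, 4 of 9 plexins, 2 of 12 Eph receptors, 1 of 4 Robo receptors, Unc5a alone of the 3 Unc5 receptors tested, and the Slits Slit2 and Slit3. Without Wt 12w replicate 4, Plxna2 (0.38), Plxnb2 (0.36), Sema4d (0.49) and Unc5b (0.85) were also called, with adjusted p values of 0.0274, 0.0159, 0.049 and 0.0353, and Sema6c was not. The downregulated genes were Robo2 and Sema3c, with 5 downregulated when the second 12w Wt library was left out and 1 when replicate 4 was. All-gene counts of downregulated genes were 2048 of 16487 and 1769 of 16460 in these fits. The Tg7 libraries lay above all Wt libraries for 36 genes (62.1%, beside 20.7% of all genes) and below all of them for 2 (3.45%, beside 16.3%).

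Among the netrins, Ntn1 (chr11:68022866-68214325), a secreted laminin-related cue that attracts through Dcc and repels through Unc5, changed most. It measured 8.32, 3.57 and 5.93 CPM in 12w Wt islets and 35.7, 23.1 and 30.1 CPM in Tg7 islets. The lowest Tg7 library stood well above the highest Wt library, and the log2 fold change was 2.34 ± 0.30 (adjusted p = 8.72e-05). Ntn3 had 2.65, 1.11 and 3.27 CPM in Wt and 7.33, 6.47 and 6.87 CPM in Tg7 islets (1.55 ± 0.34, adjusted p = 0.00494). Ntn4, a netrin of basement membranes, had 13.1, 7.78 and 11.4 CPM in Wt and 20.7, 20.03 and 24 CPM in Tg7 islets (1.01 ± 0.20, adjusted p = 0.0027). No netrin's groups overlapped at 12w.

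On the receptor side, Dcc had 5 reads over the 12 libraries and was not tested. Neogenin (Neo1), the other attractive receptor, was abundant and its log2 fold change was −0.13 (adjusted p = 0.694). It stood at 167 CPM in Wt 12w replicate 4, against 90.5 and 93.0 CPM in the other 12w Wt libraries. Unc5a, the Unc5 receptor of highest level, measured 46.8, 55.3 and 65.3 CPM in 12w Wt islets and 88.8, 87.3 and 90.7 CPM in Tg7 islets. The groups were separate, with a narrow Tg7 range, and the log2 fold change was 0.67 ± 0.13 (adjusted p = 0.00283). Unc5b (0.56 ± 0.27) and Unc5c (−0.49 ± 0.34) were not called. Unc5c had 243 reads in Wt 12w replicate 4, against 67 and 52 in the other 12w Wt libraries. Without replicate 4 the Unc5c log2 fold change was 0.18 (adjusted p = 0.682). Dscam, a cell adhesion molecule that also binds netrin, was upregulated (1.82, adjusted p = 0.00249).

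The class 4 semaphorins rose in 4 of 6 cases. Sema4f (chr6:82861879-82889763) had 4.03, 3.49 and 1.67 CPM in 12w Wt and 14.7, 9.63 and 12.7 CPM in Tg7 islets (2.04 ± 0.31, adjusted p = 0.000364). Sema4g had 14.1, 12.7 and 5.20 CPM in Wt and 28.5, 35.2 and 35.9 CPM in Tg7 islets (1.66 ± 0.28, adjusted p = 0.000845). Sema4a had 19.9, 19.1 and 16.8 CPM in Wt and 36.8, 40.1 and 36.3 CPM in Tg7 islets (1.02 ± 0.13, adjusted p = 7.31e-05). In all 3 genes the Tg7 libraries stood above every Wt library, and the lowest Wt value was that of replicate 4. Sema4c was also upregulated (0.81 ± 0.26, adjusted p = 0.0374), and its call was lost in the fit of the 12w libraries alone, without any 2w Wt library, and on leaving out replicate 1 of the 12w Wt or replicate 2 or 3 of the 12w Tg7 libraries. Sema4b, the class 4 member of highest level (−0.10 ± 0.14, adjusted p = 0.662), and Sema4d, the ligand of Plxnb1 (0.39 ± 0.16, adjusted p = 0.0954), did not pass the test.

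Of the plexin B receptors that these ligands bind, Plxnb1 (chr9:108997950-109022425) had 75.0, 79.7 and 74.5 CPM in 12w Wt and 111, 119 and 121 CPM in Tg7 islets. The groups were tight and separate, and the log2 fold change was 0.61 ± 0.13 (adjusted p = 0.00428). Plxnb2 had 307, 340 and 391 CPM in Wt and 408, 426 and 412 CPM in Tg7 islets, also without overlap, but at 0.26 ± 0.11 its difference did not pass the test (adjusted p = 0.114). Plxnb3, with 77 reads in all libraries together, was not called (1.77 ± 1.32).

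Among the other transmembrane semaphorins, Sema6a had 3.91, 3.41 and 5.13 CPM in 12w Wt and 15.1, 10.9 and 14.7 CPM in Tg7 islets. No library overlapped, and the change was 1.70 ± 0.20, with the smallest adjusted p of the guidance genes (4.68e-05). Sema6b had 2.65, 6.27 and 8.60 CPM in Wt and 12.3, 16.8 and 14.2 CPM in Tg7 islets (1.27 ± 0.30, adjusted p = 0.00838). Sema6d, of far higher level, had 31.0, 30.2 and 38.0 CPM in Wt and 43.9, 52.1 and 47.0 CPM in Tg7 islets (0.52 ± 0.12, adjusted p = 0.00698). The Tg7 values of both genes lay above all Wt values. Sema6c was upregulated as well (1.13 ± 0.35, adjusted p = 0.0304), and Sema5a and Sema5b, with the scarcer transcripts, were not called (0.29 ± 0.33 and 1.25 ± 0.52). Of their plexin A receptors, Plxna3 (0.51 ± 0.13, adjusted p = 0.012) and Plxna4 (0.95 ± 0.32, adjusted p = 0.048) were upregulated, whereas Plxna1 (0.11 ± 0.15) and Plxna2 (−0.05 ± 0.22) were not called. Plxna2 stood at 111 CPM in Wt 12w replicate 4 and at 60.8 and 49.5 CPM in the other 12w Wt libraries, and without replicate 4 its log2 fold change was 0.38 (adjusted p = 0.0274). In the fit of the 12w libraries alone the calls of Sema6c, Sema6d, Plxna3 and Plxna4 were lost. On leaving out 1 library, that of Sema6c was lost in 5 of 12 fits (replicates 2 and 4 of 12w Wt and any 12w Tg7), that of Plxna3 in 2 (replicates 2 and 3 of 12w Tg7) and that of Plxna4 in 9 (all but Tg7 2w replicates 1 and 3 and Wt 12w replicate 4).

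Sema7a (chr9:57787920-57810671), which is linked to the membrane by a lipid and signals through Plxnc1 and β1 integrins, had 15.8, 31.4 and 28.9 CPM in 12w Wt and 54.9, 49.4 and 53.0 CPM in Tg7 islets. The groups were separate, and the log2 fold change was 1.04 ± 0.19 (adjusted p = 0.0013). Plxnc1 was at 0.397 to 1.52 CPM in the 6 libraries and was not called (0.26 ± 0.91). Of the integrin subunits on the list of partners, Itga1 was upregulated (0.68, adjusted p = 0.0212) and the abundant Itgb1 was not called (0.16, adjusted p = 0.533).

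The secreted class 3 semaphorins were divided. Sema3g (chr14:32031046-32043536), known from arterial endothelium, had 3.40, 3.65 and 5.67 CPM in 12w Wt and 17.0, 15.4 and 18.3 CPM in Tg7 islets. The Tg7 values were all higher than the Wt values, and the log2 fold change was 1.97 ± 0.30 (adjusted p = 0.000355). Sema3c, which acts through neuropilins and Plxnd1, had 29.0, 21.8 and 41.3 CPM in Wt and 19.5, 12.5 and 17.3 CPM in Tg7 islets. The Tg7 libraries lay just below the Wt libraries, and the log2 fold change was −0.90 ± 0.30 (adjusted p = 0.0417). Without the Wt 12w replicate 4 library it was −0.62 (adjusted p = 0.156), and the call was also lost on leaving out the first 12w Wt library, the second 2w Wt library or any 12w Tg7 library, and with library size alone, upper-quartile factors or a replicate block. Sema3e (−0.48 ± 0.20), Sema3f (0.51 ± 0.20) and Sema3b (0.91 ± 0.46) were not called. Plxnd1, the receptor of Sema3e and a partner of Sema3c, had 12.1, 16.6 and 14.1 CPM in Wt and 25.8, 25.8 and 23.3 CPM in Tg7 islets, without overlap (0.80 ± 0.15, adjusted p = 0.00166). The co-receptor Nrp2 was upregulated (0.64, adjusted p = 0.0386), and Nrp1 was not called (0.44, adjusted p = 0.133).

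Slits and Robos changed in opposite directions in part. Slit2 (chr5:48374394-48697521) had 0.630, 0.953 and 1.47 CPM in 12w Wt and 4.17, 2.66 and 4.18 CPM in Tg7 islets (1.79 ± 0.35, adjusted p = 0.00249), and its groups did not overlap. Slit3 was upregulated by 1.34 ± 0.42 (adjusted p = 0.035), and this call was lost on leaving out replicate 1 or 2 of the 12w Wt libraries or replicate 2 or 3 of the 12w Tg7 libraries, and in the fit of the 12w libraries alone. The receptor Robo2 (chr16:73892551-74412070) had 99.8, 86.9 and 195 CPM in Wt and 55.3, 62.6 and 56.1 CPM in Tg7 islets. All Tg7 libraries were lower than all Wt libraries, with a log2 fold change of −1.14 ± 0.23 (adjusted p = 0.00302). The value of 195 CPM was that of Wt 12w replicate 4, and without this library the log2 fold change was −0.68 (adjusted p = 0.000927). With library size alone as the scaling the call was lost (adjusted p = 0.0556). Robo1 had 29.6, 22.4 and 76.2 CPM in Wt, the last again in replicate 4, and 26.4, 21.5 and 26.0 CPM in Tg7 islets. These groups overlapped and Robo1 was not called at 12w (−0.80 ± 0.33, adjusted p = 0.0965), and without replicate 4 its log2 fold change was −0.06 (adjusted p = 0.829). Robo4, the endothelial member of the family, was upregulated, with 14.5, 19.9 and 15.2 CPM in Wt and 28.6, 31.0 and 30.9 CPM in Tg7 islets (0.86 ± 0.16, adjusted p = 0.00171).

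Eph receptors and ephrins were called at 12w only in the B class receptors and in Efna1, Efnb1 and Efnb2. Ephb4 (chr5:137791337-137819897), the venous receptor of ephrin-B2, had 8.57, 11 and 8.0 CPM in Wt and 18.7, 20.8 and 26.3 CPM in Tg7 islets. The groups were separate and the log2 fold change was 1.25 ± 0.17 (adjusted p = 0.000176). Ephb6 had 2.65, 3.25 and 3.20 CPM in Wt and 6.32, 6.14 and 6.06 CPM in Tg7 islets, again apart (1.01 ± 0.26, adjusted p = 0.0125). Ephb2, called at 2w, was at 0.40 ± 0.17 (adjusted p = 0.111). None of the 7 EphA receptors was called at either age by edgeR, and 2 of them at each age had an unadjusted p below 0.05. Epha3 had the fewest reads of the 7, 116 over all libraries against 2191 for Epha7, with 16 reads in the 3 Tg7 libraries against 1 in the Wt libraries at 12w, a depth-corrected ratio of 10.7 with an exact 95% interval from 1.66 to 447 that covers counting error only.

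Efna1, a GPI-anchored ligand of EphA receptors, had 11.596, 11 and 9.87 CPM in 12w Wt and 19.9, 17.7 and 15.3 CPM in Tg7 islets (0.71 ± 0.17, adjusted p = 0.00952). Efnb2, the arterial ligand of Ephb4, had 9.96, 10.3 and 9.93 CPM in Wt and 13.9, 15.7 and 16.1 CPM in Tg7 islets (0.60 ± 0.15, adjusted p = 0.01). The values of both ligands did not overlap between the groups, and the Efnb2 call was lost in the fit of the 12w libraries alone. Efnb1 was upregulated by 0.53 ± 0.17 (adjusted p = 0.0346), a call lost in the fit of the 12w libraries alone and on leaving out replicate 3 of 2w Wt, replicate 1 or 2 of 12w Wt or any 12w Tg7 library. Efna5 (0.32 ± 0.27), Efna2 (−0.01 ± 0.24) and Efnb3 (0.22 ± 0.23) were not called, and Efna5 shares 59.9% of its exon bases with a second annotated Efna5 row that holds no counts. The handling of reads on shared bases is not given, so the Efna5 level could be understated.

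**Figure D3:**
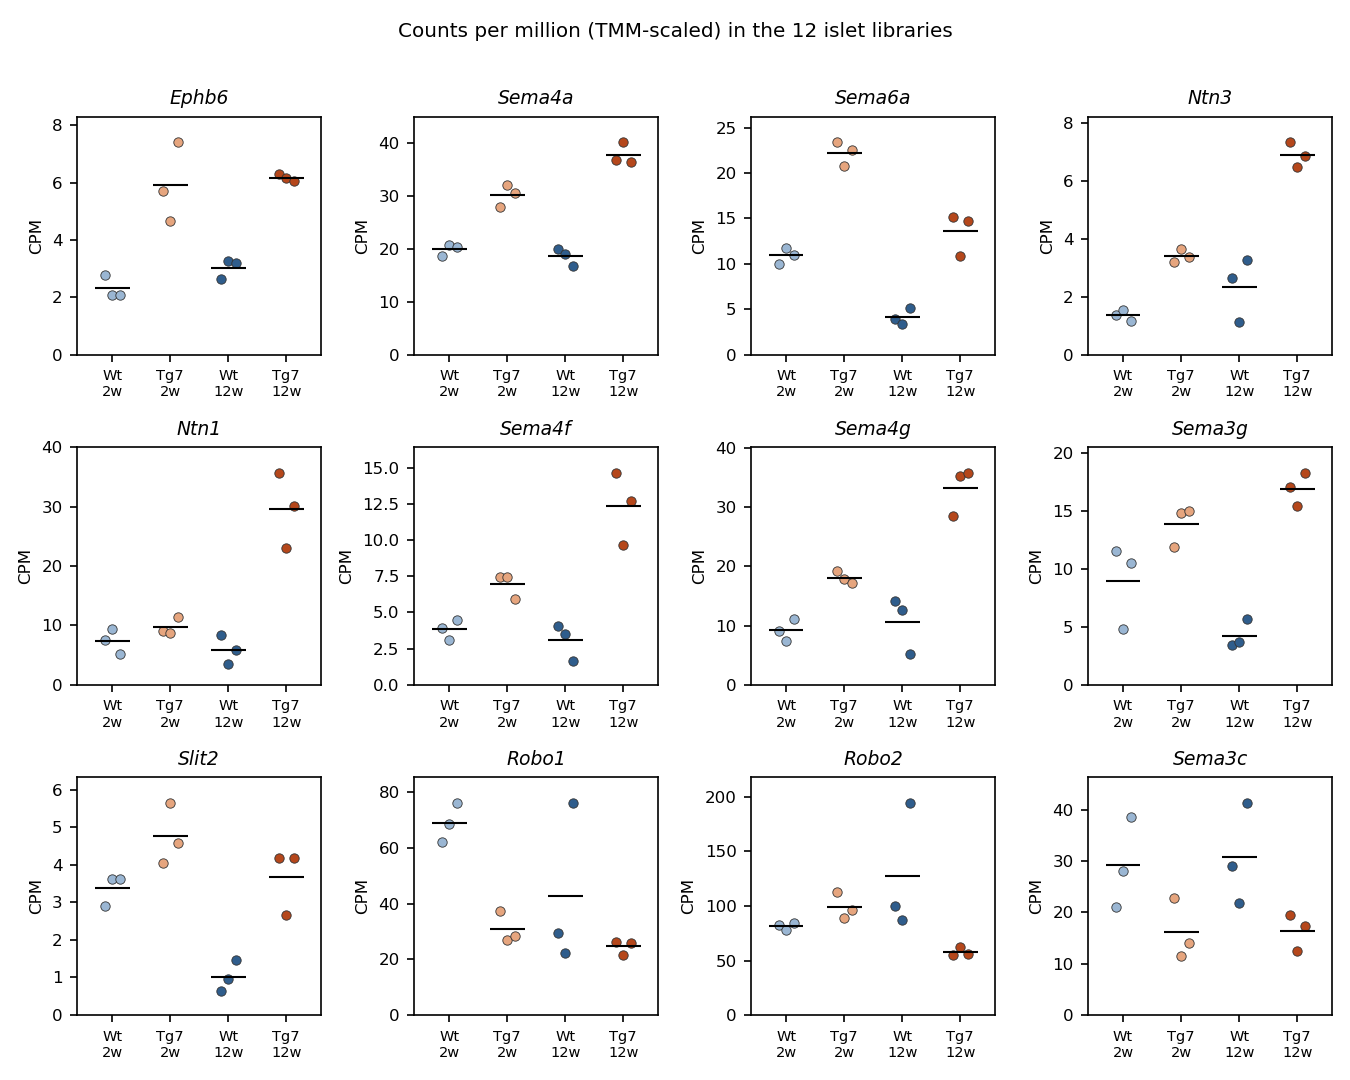
CPM of 12 guidance genes in the 3 libraries of each group, with the group mean as a line; all axes start at 0. Ntn1 stands at 23.1 to 35.7 CPM in 12w Tg7 islets and below 12 CPM in the other 9 libraries, and the highest points of Robo1, Robo2 and Sema3c in 12w Wt islets are those of replicate 4.

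Of the 28 calls at 12w, 18 were kept in all the alternative fits and in all 12 fits with a library left out: Efna1, Ephb4, Ephb6, Ntn1, Ntn3, Ntn4, Plxnb1, Plxnd1, Robo4, Sema3g, Sema4a, Sema4f, Sema4g, Sema6a, Sema6b, Sema7a, Slit2 and Unc5a. All 18 are upregulated genes. The criterion itself favoured that direction, since it included the fit with library size alone. That fit moved the all-gene median by 0.44 at 12w and called 5198 genes higher and 360 lower. Robo2 lost its call in that fit alone. The 5 genes called at both ages, Ephb6, Sema4a, Sema4g, Sema6a and Ntn3, were higher in Tg7 islets at each age. A test of the difference between ages was used to ask whether a Tg7 log2 fold change was higher or lower at 12w than at 2w. It called Ntn1 (difference of log2 fold changes 1.93 ± 0.41, adjusted p = 0.0373) and Ephb4 (1.09 ± 0.24, adjusted p = 0.0422), which is 3.45% of the 58 genes beside 0.871% of all genes. No guidance gene had a lower log2 fold change at 12w than at 2w by this edgeR test, beside 0.307% of all genes, with 3 at an unadjusted p below 0.05. This 0 became 1 with DESeq2, and in edgeR with upper-quartile factors, no filter, the stricter filter or the replicate block. On leaving out 1 library, the Ephb4 call was lost in 9 of 12 fits (all but Tg7 2w replicate 1 and Wt 12w replicates 2 and 4) and the Ntn1 call in 7 (replicates 1 and 2 of both 2w groups and any 12w Tg7), with adjusted p values of up to 0.126 and 0.108. Without Wt 12w replicate 4, 6 genes had a higher and 1 a lower log2 fold change at 12w, beside 412 and 167 of all 16460 genes. For the other 24 genes upregulated at 12w, a higher log2 fold change than at 2w was not shown, and Robo2 (−1.41 ± 0.32, adjusted p = 0.053) came closest among those with a negative difference, from 0.28 at 2w to −1.14 at 12w.

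Markers of other cell types moved with these results. At 12w, 9 of 10 endothelial markers were higher in Tg7 islets and none lower, with a median log2 fold change of 0.95, and their summed level was 486 to 605 CPM in Wt and 985 to 1032 CPM in Tg7 libraries. The 10 stellate, pericyte and fibroblast markers counted 9 higher, with sums of 89.7 to 153 CPM in Wt and 393 to 418 CPM in Tg7 libraries, and 3 of the 7 Schwann markers tested were higher. No gene of the first 2 lists was at 0 in all libraries. The 5 guidance genes named above as well known from endothelium had log2 fold changes of 1.25 (Ephb4), 0.86 (Robo4), 0.80 (Plxnd1), 0.60 (Efnb2) and 0.56 (Unc5b, not called), beside a range from 0.32 (Emcn, not called) to 1.11 (Plvap) over the endothelial markers. Ntn1 (2.34), Sema4f (2.04) and Sema3g (1.97), and others such as Slit2, Sema6a and Sema4g, lay above all 10 endothelial markers. The stellate, pericyte and fibroblast markers had a median log2 fold change of 2.285, which was above Sema4f and Sema3g. The part of these cells in the guidance gene results was not tested.

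At 2w none of the 10 endothelial markers was called, and their sums overlapped at 1129 to 1411 CPM in Wt and 1274 to 1367 CPM in Tg7 libraries. Of the stellate, pericyte and fibroblast markers 6 were higher in 2w Tg7 islets, with sums of 354 to 497 CPM in Wt and 534 to 703 CPM in Tg7 libraries. β-cell markers fell in 8 of 10 cases at each age, with median log2 fold changes of −2.06 and −2.29. No alpha or delta marker was called at either age. Further calls in Tg7 islets were Ppy, Lyz2 of 7 macrophage markers and 1 acinar marker higher at 2w, 2 ductal and 1 erythroid marker higher and Csf1r lower at 12w, and the mesothelial Msln lower at both ages. Log2 fold changes of the endothelial markers were positive in 7 of 10 cases at 2w, with a median of 0.17. For the 2w calls of Ephb6, Sema4a and Sema6a the part of endothelial and stromal cells was not tested.

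**Figure D4:**
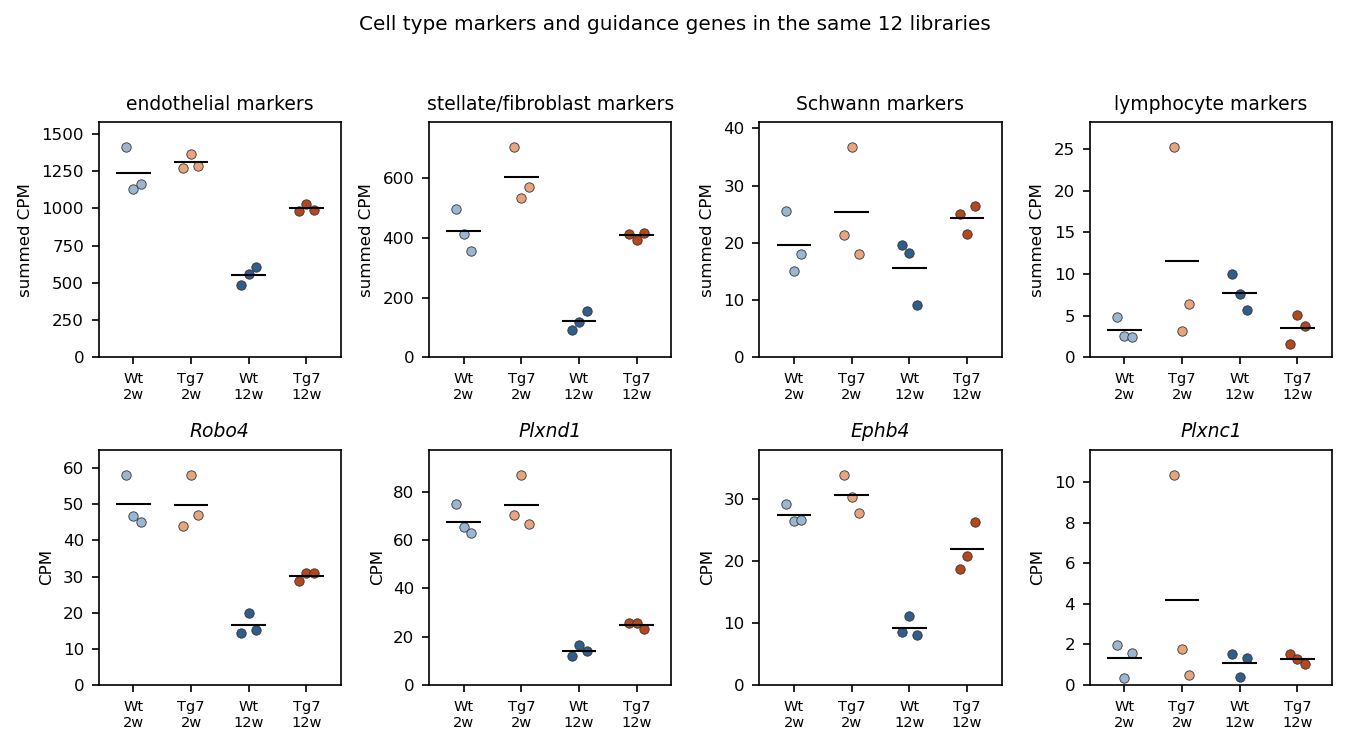
Top row, summed CPM of 4 marker lists in each library; bottom row, CPM of Robo4, Plxnd1, Ephb4 and Plxnc1 in the same libraries, with group means as lines and axes from 0. The endothelial sum, Robo4, Plxnd1 and Ephb4 are all lowest in 12w Wt islets, and the single high Plxnc1 value of 10.4 CPM is in the 2w Tg7 library with the highest lymphocyte sum, 25.2 CPM.

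The design also allows the change between 2w and 12w to be read within each genotype, with the caution that the labels name no batch, so a batch between ages and age itself cannot be told apart. In Wt islets 23 of 58 guidance genes fell from 2w to 12w (39.7%, beside 7.91% of all genes) and 1 rose (1.72%, beside 7.9%). The median log2 fold change was −0.60. Receptors and ligands shared in the fall, with 11 of 28 and 12 of 30 genes called, among them 4 of 6 ephrins and 4 of 9 plexins. Without the Wt 2w replicate 2 library 13 genes fell, beside 774 of all 16472 genes tested.

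Epha3 had the lowest fitted value, falling from 0.534, 1.4 and 0.372 CPM at 2w to 0.126, 0 and 0 CPM at 12w (log2 fold change −4.36 ± 1.14, adjusted p = 0.0192). In reads these are 35 against 1, a depth-corrected ratio of 0.0396 with an exact 95% interval from 0.000975 to 0.236, and leaving out 1 library moved the fitted value from −3.64 to −6.68, so its place before Plxnd1 rests on 1 read. Slit1 (−3.08 ± 0.83, adjusted p = 0.0225) and Robo3, a Robo of commissural axons (−2.38 ± 0.76, adjusted p = 0.0469), were also near the detection limit at 12w, at no more than 0.2 and 0.953 CPM. Plxnd1 was well measured, with 74.9, 65.3 and 62.7 CPM at 2w and 12.1, 16.6 and 14.1 CPM at 12w. The ages were far apart, and the fall of 2.24 ± 0.15 on the log2 scale had the smallest adjusted p of the guidance genes (8.15e-07). Sema5b followed (−2.01 ± 0.51, adjusted p = 0.0159). Of these 5 genes Plxnd1 alone was called in all 12 fits with a library left out. The others lost their call in 2 (Epha3, Sema5b), 3 (Slit1) and 8 (Robo3) of them, Epha3 without replicate 2 of either age, Sema5b without Wt 2w replicate 1 or Wt 12w replicate 2, Slit1 without Wt 2w replicate 2 or Wt 12w replicates 1 or 2, and Robo3 without any 2w Wt or 12w Tg7 library, Tg7 2w replicate 2 or Wt 12w replicate 1.

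Other clear falls in Wt islets were those of Unc5b (−1.69 ± 0.27, adjusted p = 0.000944), Robo4 (−1.59 ± 0.16, adjusted p = 3.08e-05), Ephb4 (−1.57 ± 0.17, adjusted p = 5.81e-05), Efnb2 (−1.56 ± 0.15, adjusted p = 1.64e-05) and Sema7a (−1.40 ± 0.19, adjusted p = 0.000251). Falls of Efna1, Plxna4, Sema6a, Sema6d and Slit2 were likewise called in all alternative fits and with any library left out. All 10 endothelial markers also fell, with a median of −1.20, as did 7 of 10 stellate, pericyte and fibroblast markers (median −2.07), and their part in the guidance gene results was not tested. The exception was Sema3e, a repellent ligand of Plxnd1, which rose from 13.6, 23.5 and 18.4 CPM to 44.9, 27.6 and 34.9 CPM. Its ages did not overlap, and the log2 fold change was 0.95 ± 0.21 (adjusted p = 0.00681), a call lost with library size alone (adjusted p = 0.083). The sparse Unc5d, which was not tested, had 23 reads at 2w and 2 at 12w, a ratio of 0.12 with an exact 95% interval from 0.0138 to 0.488.

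In Tg7 islets 14 guidance genes fell between the ages (24.1%, beside 6.01% of all genes) and 3 rose (5.17%, beside 7.02%). On leaving out replicate 1 or 2 of 12w Tg7, 9 fell, beside 489 of 16413 and 516 of 16401 of all genes. Without Wt 12w replicate 4, 6 rose, beside 1731 of all 16460 genes. The genes that rose were Ntn1, from 9.12, 8.70 and 11.4 CPM to 35.7, 23.1 and 30.1 CPM (1.60 ± 0.28, adjusted p = 0.00199), Unc5a (0.61 ± 0.13, adjusted p = 0.00826) and Sema4g (0.88 ± 0.27, adjusted p = 0.0459). With library size alone the split was 1 higher and 14 lower, beside 645 and 1061 of all 15961 genes. The calls of Unc5a and Sema4g were lost in that fit. The Sema4g call was also lost with upper-quartile factors and in 9 of 12 fits with a library left out, those without any 12w Wt library excepted. Of the genes that fell, 11 also fell in Wt islets, Plxnd1 (−1.58 ± 0.14) and Slit1 (−2.70 ± 0.66) among them. The other 3, Epha7 (−1.32 ± 0.20, adjusted p = 0.000784), Sema5a (−1.10 ± 0.31, adjusted p = 0.0336) and Robo2 (−0.78 ± 0.23, adjusted p = 0.0388), were called in Tg7 islets alone. The Slit1 call in Tg7 islets was lost without Tg7 2w replicate 3 or any 12w Tg7 library (adjusted p up to 0.089). The Robo2 call was lost with library size alone and in 9 of 12 fits with a library left out, again with the exception of the 12w Wt libraries, and the Sema5a call on leaving out replicate 1 or 3 of 2w Tg7 or any 12w Tg7 library. In none of these 3 did the test of the difference between genotypes pass the threshold (adjusted p = 0.226, 0.555 and 0.053).

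**Figure D5:**
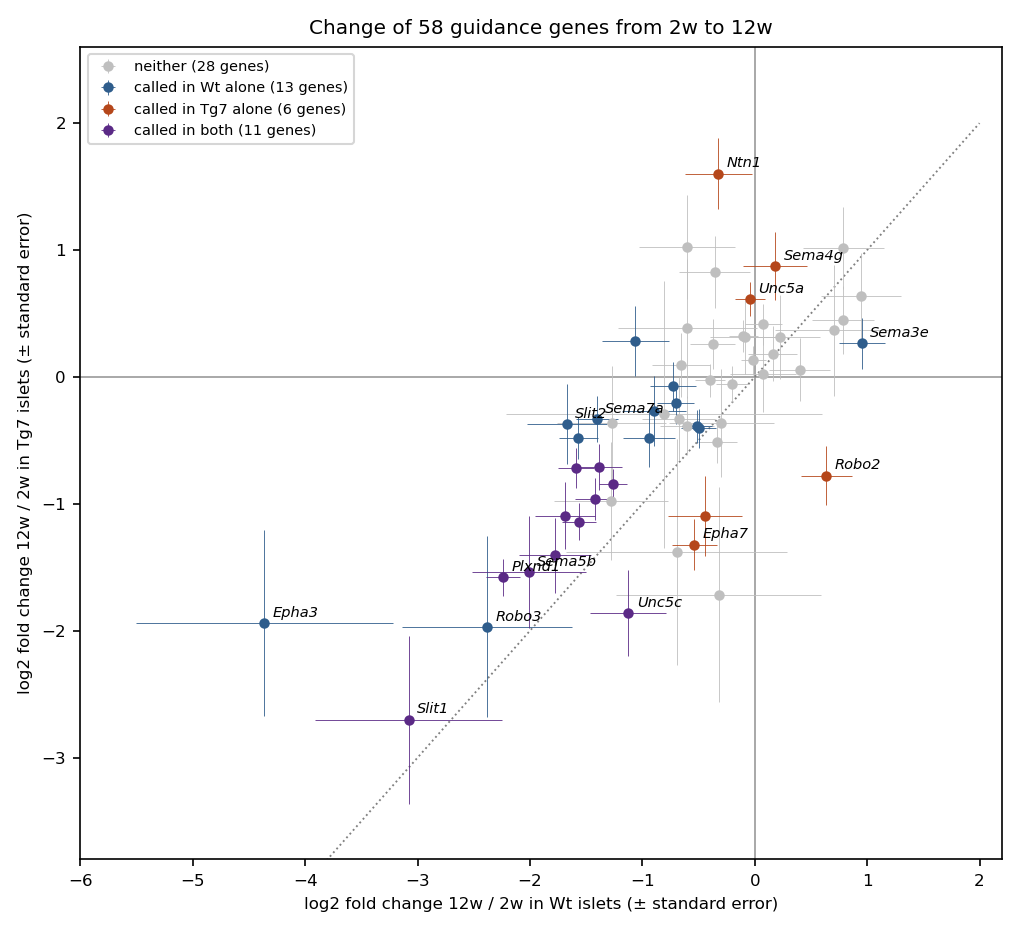
Log2 fold change from 2w to 12w in Wt islets (horizontal) and in Tg7 islets (vertical) for 58 guidance genes, with bars of 1 standard error; colours mark genes called in both genotypes, in 1 or in neither, and the dotted line is equal change. The 11 genes called in both lie at the lower left, and Ntn1 stands at −0.32 in Wt and 1.60 in Tg7 islets.

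Beyond the ligands and receptors themselves, a list of 18 co-receptors and further ligands was examined, of which 16 were tested. At 12w 6 were upregulated (Nrp2, Dscam, Rgma, L1cam, Itga1 and Gpc1) and 2 downregulated (Rgmb and Flrt1), with a median log2 fold change of 0.30, beside 12.5% and 11.2% of all genes. At 2w only Gpc1, a glypican that binds Slit, was called by edgeR (0.74, adjusted p = 0.00754). Rgma, a neogenin ligand, changed by 1.11 at 12w (adjusted p = 0.00596), and its relative Rgmb by −0.48 (adjusted p = 0.0403).

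Of 36 intracellular partners, 6 were upregulated and 6 downregulated at 12w (median 0.14), and 1 and 2 at 2w. Over all genes the shares were 12.5% and 11.2% at 12w and 6.07% and 4.55% at 2w, so these counts were near the background. Crmp1, a collapsin response mediator that relays semaphorin signals to microtubules, was upregulated at both ages (1.04, adjusted p = 0.000196, and 1.36, adjusted p = 5.59e-06). Its relative Dpysl3 was upregulated at 12w (2.41, adjusted p = 0.00122). The other partners upregulated at 12w were Ablim3 (1.68, adjusted p = 0.00918), Rnd1 (1.52, adjusted p = 0.0184), Tiam1 (0.97, adjusted p = 0.0162) and Fyn (0.59, adjusted p = 0.0111). Grip1, a PDZ scaffold that binds ephrin-B and Eph receptor tails, was downregulated at both ages (−1.10, adjusted p = 0.00183, and −1.52, adjusted p = 8.62e-05), and Farp2, an exchange factor on plexin A, at 2w (−0.69, adjusted p = 0.0132). The Slit-Robo GTPase-activating protein Srgap1 (−0.87, adjusted p = 0.00253), the actin-binding Ablim1 (−0.89, adjusted p = 0.000422), and the exchange factors Trio (−0.89, adjusted p = 0.00514) and Arhgef12 (−0.60, adjusted p = 0.0288) were downregulated at 12w. Mical2 was the last partner downregulated at 12w (−0.32, adjusted p = 0.0478). Trio stood at 229 CPM in Wt 12w replicate 4, against 112 and 154 CPM in the other 12w Wt libraries. Arhgef12 stood at 355 CPM there, against 215 and 189 CPM. The calls of partner genes were not examined without that library.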

How the data were processed

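Bulk RNA-seq counts of 12 islet libraries, 3 per group, were analysed. The authors trimmed paired-end reads (NEB Ultra II libraries, HiSeq) with Trimmomatic, aligned them to mm9 (NCBIM37) with TopHat2 2.0.11 and deposited unnormalised featureCounts read counts per Ensembl gene. For featureCounts, the version and strandedness are not given in the sources used, so reads of overlapping antisense genes cannot be told apart. Symbols, positions and exon lengths came from the mm9 annotation (37205 of 37991 rows).

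Counts were filtered with filterByExpr (minimum count 10, total 15; 15961 genes kept), scaled with TMM and fitted by group in edgeR 4.0.16 (glmQLFit, glmQLFTest; R 4.3.3), with Benjamini-Hochberg adjustment over all genes and calls made below 0.05. Adjusted p values come from edgeR unless DESeq2 1.42.0 is named. CPM use TMM-scaled library sizes. Intervals and ratios of low counts cover counting error only. Scripts were tested on simulated counts. Same-numbered libraries did not deviate together (correlations −0.0214, −0.167 and −0.0343 at 2w, −0.0894 and −0.0112 at 12w) and were not paired. As alternatives, DESeq2 replaced edgeR, TMM gave way to library size alone or to upper-quartile factors, the filter was dropped or made stricter (50 counts in 3 libraries), a replicate block was added, each age was fitted alone, and 1 library at a time was left out.

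The guidance genes, the partner and marker lists and the rule for naming genes were chosen with earlier results of these data known. Named with values were genes called between Tg7 and Wt islets (at most 20 per age by adjusted p), genes whose effect differed between ages, the highest of each family, the largest changes with age in Wt islets, and known partners of these. Efna2, Efna5, Sema5a and Sema6c were named after their values were seen. Other data types of the study were not used here.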

Additional observations from a re-analysis of the deposited data

Results flagged for a closer look

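Among the guidance genes, 2 had a Tg7 effect that differed between ages by the interaction test of edgeR. The Tg7 effect on Ntn1 was larger at 12w than at 2w by 1.93 on the log2 scale, with log2 fold changes of 2.34 and 0.42. The Tg7 effect on Ephb4 was larger at 12w by 1.09, with log2 fold changes of 1.25 and 0.16. In 12w Tg7 islets all 3 libraries were above all 3 Wt libraries for both genes. At 12w the endothelial markers Pecam1 and Eng also had a larger Tg7 effect than at 2w (differences 0.91 and 0.83), as had 5 of 10 stellate, pericyte and fibroblast markers, and their part in the 2 results was not tested.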

How the results depend on the processing

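Neither a called gene nor a count changed direction under the alternatives run. Counts of called guidance genes moved as follows, with all-gene counts beside them. The genes tested numbered 15961 in the main fit, with other scaling and with the block. They were 16051 to 16972 with DESeq2, 24010 with no filter and 13039 with the stricter filter. In the fit of 12w libraries alone they were 15079, and over left-out libraries 16314 to 16487. At 2w the 6 upregulated became 11 with DESeq2 and 10 with library size alone, and 3 to 11 over left-out libraries (3 without any 2w Wt library, 11 without Wt 12w replicate 4). Over all genes, 969 became 1491 with DESeq2 and 1670 with library size alone, and 377 to 1613 over left-out libraries. The 1 downregulated became 2 with DESeq2, no filter or the block, 0 with library size alone, and 0 to 2. The all-gene 726 became 983, 763 and 1280 with DESeq2, no filter and the block, 317 with library size alone, and 377 to 1458. At 12w the 26 upregulated stayed within 18 (12w libraries alone) and 39 (library size alone), and 20 to 29. Beside this, the all-gene 1989 became 1434 and 5198 in those 2 fits, and 1403 to 2148. The 2 downregulated became 0 with library size alone, 1 with upper-quartile factors or the block, and 1 to 5 (5 without Wt 12w replicate 2). Among all genes, 1783 became 360 with library size alone, 1317 with upper-quartile factors, 1580 with the block, and 1012 to 2048. The 2 log2 fold changes that were higher at 12w than at 2w became 5 with DESeq2, 4 with library size alone, no filter or the block, and 0 to 6 (6 without Wt 12w replicate 4). All genes counted 139, which became 349 with DESeq2, 323, 239 and 342 in the next 3 fits, and 65 to 412. The 0 lower ones became 1 with DESeq2, upper-quartile factors, no filter, the stricter filter or the block, and 0 to 1. In the same order, the all-gene 49 became 214, 51, 181, 53 and 160, and 17 to 167. With age in Wt islets the 1 higher became 3 with DESeq2 or the block, 0 with library size alone, 2 with no filter, and 1 to 3. The 23 lower ranged from 13 to 26 (13 without Wt 2w replicate 2). All-gene counts of higher genes were 1261, 1687 with DESeq2, 1875 with the block, 325 with library size alone, 1220 with no filter, and 562 to 1873. Those of lower genes were 1263, 774 without Wt 2w replicate 2 and 3795 with library size alone. In Tg7 islets the 3 higher became 5 with DESeq2 or the block, 1 with library size alone, and 2 to 6 (6 without Wt 12w replicate 4). The 14 lower ranged from 9 to 20 (9 without Tg7 12w replicate 1 or 2). Here the all-gene 1120 higher became 1426 with DESeq2, 1648 with the block, 645 with library size alone, and 626 to 1731. The all-gene 959 lower ranged from 489 to 1598. The causes were not tested. Scaling by library size moved the all-gene median by 0.17 (2w), 0.44 (12w), 0.27 (difference between ages), −0.39 (age, Wt) and −0.12 (age, Tg7) in log2 units, and the calls under it include that shift. The replicate block lost the calls of Sema3c and Sema6c at 12w (adjusted p = 0.0928 for Sema6c), Ephb4 between ages (0.0634) and Robo3 with age (0.0648) and no other; libraries share only a number. Depth limits the genes under 1 CPM, among them Epha3, Slit1, Robo3 and Unc5d.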
